A study of Mus musculus with 18 samples.

Results

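The genes described here are 3 receptors of the ERBB family (Egfr, Erbb2 and Erbb3) and 7 ligands of the EGF family (Areg, Ereg, Hbegf, Tgfa, Epgn, Btc and Nrg4) in mouse pancreatic tumour cell lines. They were chosen by symbol and all 10 were rows of a table of 35642 gene symbols measured by RNA sequencing in 18 libraries. The lines, 1151 and 2838, came from KPCY mice, in which Pdx1-Cre activates Trp53 R172H in the pancreas together with a Yfp reporter in both copies of R26. All 6 groups, controls included, share the KPCY background, and apart from puromycin in line 1151 the cells were untreated. The study concerns Mcu, which encodes the channel-forming protein of the mitochondrial calcium uniporter.

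Line 1151 gave 3 libraries of Mcu Cre-KO cells carrying an empty vector (labelled knockout) and 3 of the same Cre-KO cells in which MCU was put back (labelled re-expressing), both kept in 2 µg/mL puromycin. Line 2838 gave 3 libraries from each of 4 clones: CRISPR-KO clones 17 and 42 (labelled knockout), and clones 15 and 22 with an empty vector (labelled wild type). An empty vector is not named for the CRISPR-KO clones. Each 2838 group is 1 clone, and both 1151 groups come from 1 line. Whether the 3 libraries of a group were separate cultures is not stated, and p-values over libraries then measure only their spread, which may be technical. The lines were also different batches (1 for 1151, 2 for 2838). Puromycin, not named for 2838, follows the same split. Line, batch and puromycin cannot be told apart, and no level was tested between lines.

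ERBB proteins are receptor tyrosine kinases that signal as pairs. EGFR binds most EGF family ligands, ERBB2 binds none and works as a partner, and ERBB3 has a weak kinase and binds neuregulins. The ligands are made as membrane proteins and are shed by metalloproteases, chiefly ADAM17 and ADAM10. In the pancreas, TGF-alpha and EGFR are known for their part in the conversion of acinar cells to duct-like cells.

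The promoters of 4 members are shown for the genes that the results turn on, chosen after their values were seen: Egfr and Erbb2 moved in opposite directions in line 1151, Areg differed between the 2838 clones, and Tgfa stood higher in the cells labelled knockout of both lines. Each runs 5′ to 3′ on the gene's strand, 250 bases before the start site and 50 after it, from RefSeq (GRCm38.p6). Windows of 7 of the 10 members were searched. Capitals mark matches, on either strand, to 6 motifs. The search took TGANTCA for the AP-1 factors and GGAATG for the TEAD factors of the Hippo pathway. For Sp1, a factor of many promoters without a TATA box, it took the letters GGGCGG. The E-box read by Snail factors was CAGGTG, and the TATA box was searched as TATAAA. The cyclic AMP response element, TGACGTCA, was added after the sequences were seen.
Egfr promoter, chr11:16751953-16752252, plus strand: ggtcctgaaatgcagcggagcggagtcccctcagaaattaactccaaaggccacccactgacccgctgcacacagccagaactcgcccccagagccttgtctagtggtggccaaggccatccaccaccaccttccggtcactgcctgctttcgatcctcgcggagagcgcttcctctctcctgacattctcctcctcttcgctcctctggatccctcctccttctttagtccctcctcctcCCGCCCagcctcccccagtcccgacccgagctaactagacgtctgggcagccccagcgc
Erbb2 promoter, chr11:98412234-98412533, plus strand: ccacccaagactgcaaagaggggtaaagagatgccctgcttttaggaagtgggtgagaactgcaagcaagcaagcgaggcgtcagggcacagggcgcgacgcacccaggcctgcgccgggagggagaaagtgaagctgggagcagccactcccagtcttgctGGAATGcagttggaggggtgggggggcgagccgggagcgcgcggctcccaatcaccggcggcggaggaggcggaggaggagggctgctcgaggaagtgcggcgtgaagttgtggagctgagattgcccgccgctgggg
Areg promoter, chr5:91139349-91139648, plus strand: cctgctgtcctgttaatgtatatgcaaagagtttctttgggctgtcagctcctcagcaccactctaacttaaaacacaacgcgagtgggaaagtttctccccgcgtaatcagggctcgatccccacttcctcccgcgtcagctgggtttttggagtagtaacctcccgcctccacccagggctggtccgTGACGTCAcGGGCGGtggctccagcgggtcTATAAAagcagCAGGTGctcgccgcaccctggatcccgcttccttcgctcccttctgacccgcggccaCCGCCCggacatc
Tgfa promoter, chr6:86194972-86195271, plus strand: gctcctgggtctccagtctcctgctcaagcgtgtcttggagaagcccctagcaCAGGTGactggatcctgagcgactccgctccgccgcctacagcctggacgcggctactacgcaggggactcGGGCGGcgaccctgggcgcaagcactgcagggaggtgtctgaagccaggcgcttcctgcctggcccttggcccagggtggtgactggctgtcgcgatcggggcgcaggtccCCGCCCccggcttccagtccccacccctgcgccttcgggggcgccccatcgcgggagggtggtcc
The Egfr window held 1 Sp1 box, starting at -9 from the start site, and no TATA box. The Erbb2 window held 1 TEAD site. The Areg window held a cyclic AMP element starting at -61, a TATA box starting at -31, an E-box and 2 Sp1 boxes, none of which overlap. The Tgfa window held an E-box and 2 Sp1 boxes. Among 32841 promoter windows of this length, 1.79% held the cyclic AMP element, 13.6% the TATA box, 35.7% the Sp1 box, 20.2% the E-box, 14.7% the TEAD site and 7.81% the AP-1 site. The AP-1 letters were not in any of the 7 windows searched. A match describes letters only.

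The values were TPM, a transcript abundance per length in which each library adds up to the same sum. Levels of different genes can therefore be set side by side, but read depth is unknown. A library had 10760 to 11507 genes at 1 TPM or more. The fewest were in wild-type-labelled clone 22 replicate 3, whose upper quartile was 3.73 TPM, while the median gene, among those averaging at least 5 TPM, stood at 0.653 of its level in the other libraries of that clone. Where a result is also given without this library, this is said. Correlations over the 18 libraries include it throughout. The epithelial keratins Krt8 and Krt18 ranged from 1537 to 2810 TPM and E-cadherin (Cdh1) from 152 to 577 TPM, whereas Epcam reached at most 1.68 TPM and 1 TPM in 2 libraries. The 4 fibroblast markers summed to at most 0.561 TPM. Of the leukocyte markers, Cd3e was listed at 0 in all 18 libraries and Ptprc reached at most 0.227 TPM, while the macrophage gene Cd68 stood at 1.26 to 6.29 TPM, above 1 TPM in all 18. Of the 3 acinar markers, Cpa1 was listed at 0 throughout and Prss2 reached at most 0.735 TPM, while Cela1 reached 28.8 TPM and stood at 1 TPM or more in 12 libraries.

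Mcu itself passed no test between the 1151 groups, whose libraries overlapped. In clone 17, labelled knockout, it stood above every library labelled wild type. It averaged 15.0 ± 1.63 TPM in the 1151 cells labelled knockout, against 14.3 ± 1.06 TPM in re-expressing cells (SD, n = 3 each; log2 difference 0.067, adjusted p = 0.581). In 2838 it averaged 118.6 ± 4.79 TPM in clone 17 and 11.4 ± 0.888 TPM in clone 42, both labelled knockout, against 75.2 ± 6.44 TPM in clone 15 and 83.3 ± 20.8 TPM in clone 22, both labelled wild type (SD, n = 3 each). Without the library that stands apart, clone 22 averaged 95.3 TPM. These are RNA levels, and loss of the MCU protein was not tested. Every direction below is that of the labels.

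**Figure D1:**
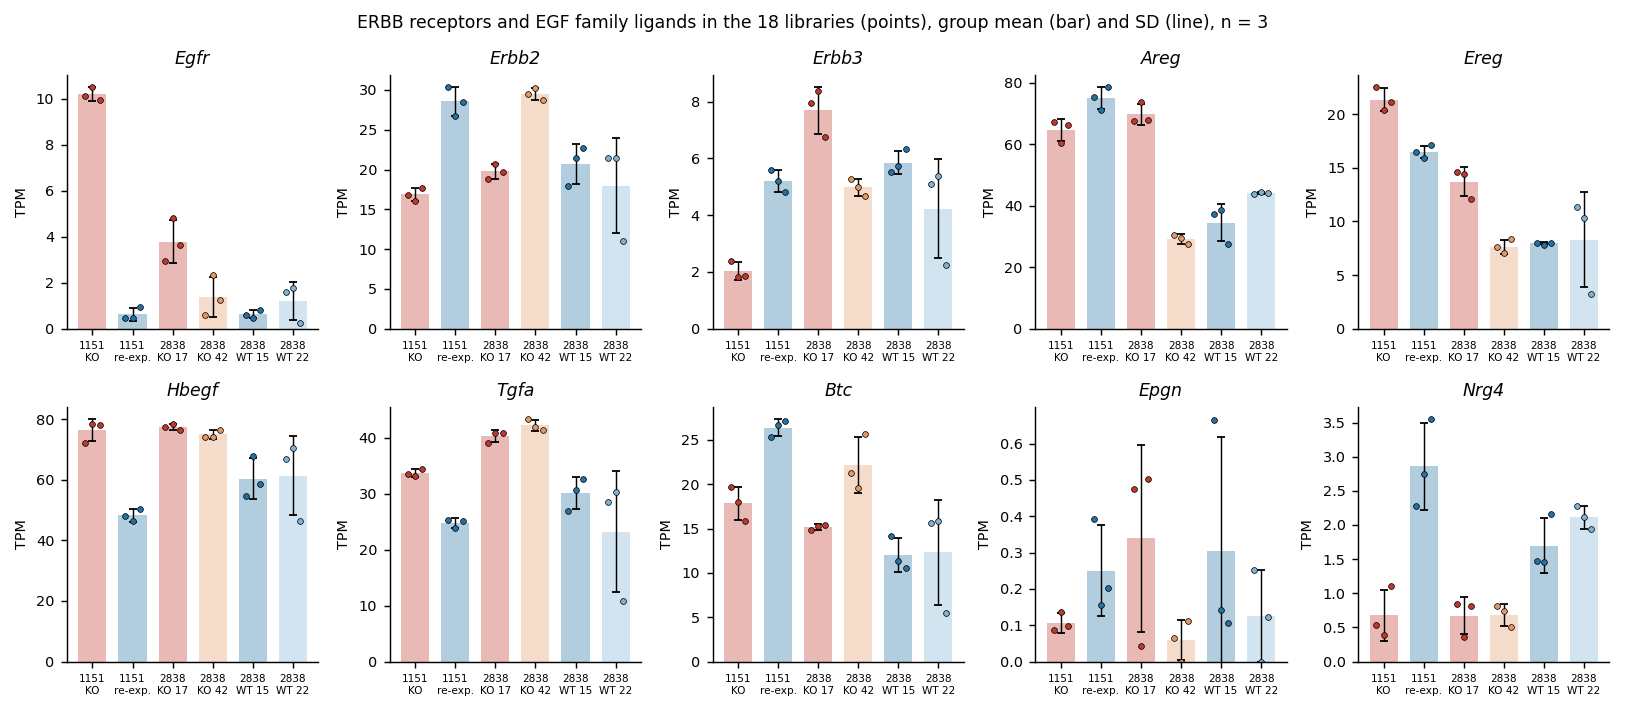
TPM of each receptor and ligand (vertical axes, each with its own scale) in the 6 groups (horizontal axis), with points for libraries, bars for group means and lines for SD (n = 3). Egfr stands at 9.93 to 10.5 TPM in the 1151 cells labelled knockout and at no more than 0.958 TPM in the re-expressing cells. Hbegf and Tgfa are higher, and Nrg4 lower, in every library labelled knockout than in any compared library of the same line.

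In line 1151 the receptors changed in opposite directions. Egfr stood at 10.1, 10.5 and 9.93 TPM in the cells labelled knockout, against 0.457, 0.472 and 0.958 TPM in the re-expressing cells. The groups do not overlap, and no re-expressing library reached 1 TPM. The ratio of the means was 16.2, and the difference on the log2(TPM + 1) scale, where changes of low genes come out too small, was 2.79 (SE 0.14, limma adjusted p = 7.25e-06). Egfr entered the test through the knockout-labelled libraries alone, since a gene needed 1 TPM in at least 3 libraries, so its place among the called members is not counted as support. In bulk RNA, more cells with Egfr and more Egfr RNA per cell cannot be told apart.

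Erbb2, which lies on chromosome 11 as Egfr does, was 16.9, 16.0 and 17.7 TPM in the cells labelled knockout, against 30.4, 26.8 and 28.5 TPM in the re-expressing cells. The 3 knockout-labelled libraries all lie below the others (log2 difference -0.73, SE 0.073, adjusted p = 1.71e-04). Erbb3 was 2.39, 1.82 and 1.86 TPM in knockout-labelled cells, against 5.58, 5.21 and 4.82 TPM in re-expressing cells (log2 difference -1.04, SE 0.11, adjusted p = 2.39e-04). The groups again do not overlap. The summed level of the 3 receptors was 29.1 ± 0.634 TPM in the cells labelled knockout, against 34.4 ± 2.00 TPM in the re-expressing cells (SD, n = 3 each), while the ratio of Egfr to Erbb2 was 0.606 ± 0.049 in knockout-labelled cells, against 0.0221 ± 0.010 in re-expressing cells. The receptor RNA of the re-expressing cells was thus nearly all Erbb2 and Erbb3. Erbb4, the receptor not among the members, was listed at 0 in all 18 libraries.

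Among the ligands of EGFR in 1151, Hbegf, Tgfa and Ereg rose and Btc and Areg fell. Hbegf, a heparin-binding ligand, was 72.1, 78.5 and 78.2 TPM in the cells labelled knockout, against 48.0, 46.3 and 50.5 TPM in the re-expressing cells (log2 difference 0.65, SE 0.061, adjusted p = 1.21e-04). Tgfa was 33.5, 33.1 and 34.5 TPM in knockout-labelled cells, against 25.3, 23.8 and 25.1 TPM in re-expressing cells (log2 difference 0.43, SE 0.056, adjusted p = 5.70e-04). Ereg, encoding epiregulin, was 22.6, 20.4 and 21.1 TPM in knockout-labelled cells, against 16.5, 16.0 and 17.1 TPM in re-expressing cells (log2 difference 0.35, SE 0.067, adjusted p = 0.0034). In none of these 3 genes did the groups overlap. Genes of chromosome 6, where Tgfa lies, had a median log2 difference of 0.27 in this comparison, and after centring each library per chromosome that of Tgfa was 0.098 (adjusted p = 0.198).

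Btc, encoding betacellulin, was 19.6, 18 and 15.9 TPM in the cells labelled knockout, against 25.3, 26.7 and 27.1 TPM in the re-expressing cells (log2 difference -0.54, SE 0.087, adjusted p = 0.00149). Areg, encoding amphiregulin, was 67.1, 60.4 and 66.4 TPM in knockout-labelled cells, against 75.3, 71.2 and 78.6 TPM in re-expressing cells (log2 difference -0.21, SE 0.066, adjusted p = 0.0261). Both genes were lower in 3 of 3 libraries, and the ratio of the Areg means was 0.861. The call of Areg was lost without knockout-labelled replicate 2 (adjusted p = 0.0908) or re-expressing replicate 1 (0.0756) or 3 (0.0947).

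Nrg4, a neuregulin that binds ERBB4, was 0.541, 0.383 and 1.10 TPM in the cells labelled knockout, against 2.28, 2.75 and 3.55 TPM in the re-expressing cells (log2 difference -1.21, SE 0.20, adjusted p = 0.00161). With a pseudocount of 0.1 the log2 difference was -2.02. It reached 1 TPM in 1 knockout-labelled library, so it too passed the filter chiefly through the group where it is high. Epgn, encoding epigen, stood between 0.0856 and 0.136 TPM in the cells labelled knockout, against 0.155 to 0.392 TPM in the re-expressing cells, and was not tested.

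In all, 9 of the 10 members were tested in 1151, of which 4 were called higher and 5 lower. Without Egfr and Nrg4, which passed the filter chiefly through the group where they are high, 7 were tested, 3 higher and 4 lower. Of all 11630 genes tested, 61.0% were called in one direction or the other, 34.0% higher and 27.0% lower, so a high share of calls is the rule in this comparison. Groups did not overlap for any of the 9 members tested, 4 higher and 5 lower, nor for 67.2% of all genes (37.4% higher, 29.8% lower). The error of this comparison is the spread between libraries of 1 population each. With the error taken from the 6 group means, in which the spread between the 2838 clones stands in, 0 of the 9 were called (3 at an unadjusted p under 0.05, limma), and Egfr had an adjusted p of 0.156. With all 18 libraries in 1 fit, 4 calls were lost: Areg (adjusted p = 0.146), Ereg (0.348), Tgfa (0.20) and Btc (0.127), and 37.2% of all genes were called. Centred per chromosome, the log2 difference of Areg was -0.36 (adjusted p = 0.00162) and that of Ereg 0.20 (0.0292).

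**Figure D2:**
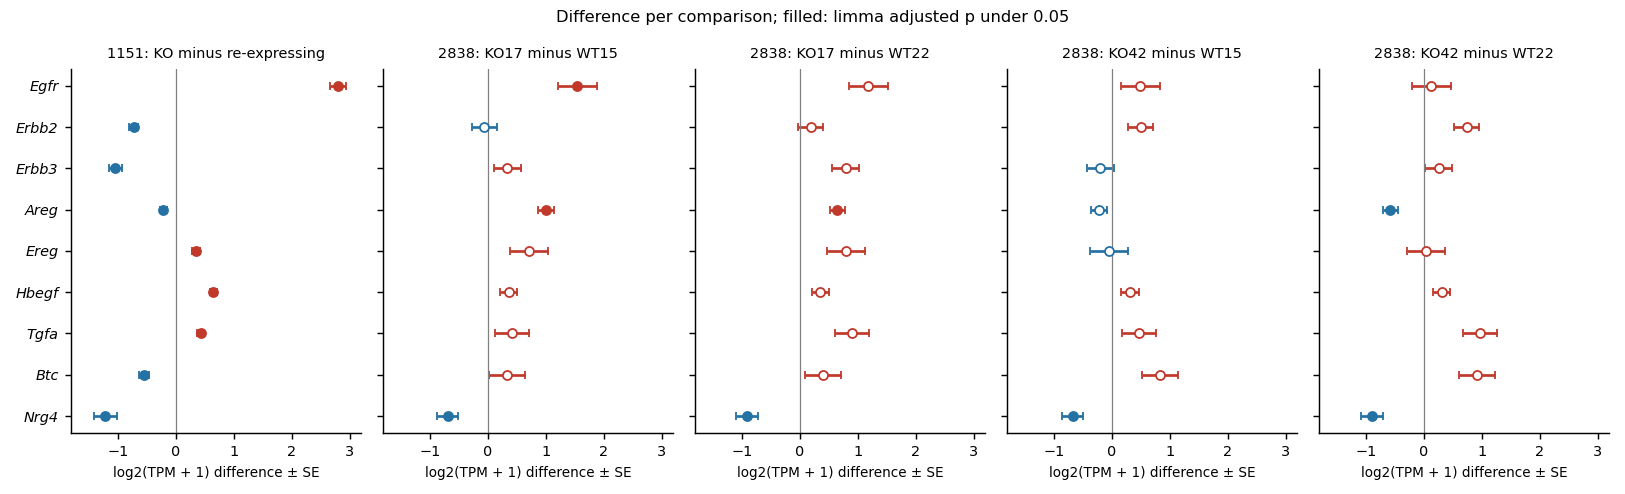
Difference in log2(TPM + 1) (horizontal axes, with SE) of the 9 members tested (rows) in 1151 (left panel) and in each pair of a 2838 clone labelled knockout and one labelled wild type; filled points have a limma adjusted p under 0.05. Every point is filled in 1151, and in 2838 Nrg4 is filled in all 4 pairs while Areg changes side between clones 17 and 42.

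In line 2838 the ligands Tgfa and Hbegf were higher, and Nrg4 lower, in every library labelled knockout than in every library labelled wild type. Tgfa stood at 39.03, 40.9 and 40.8 TPM in clone 17 and 43.3, 41.9 and 41.4 TPM in clone 42, against 27, 30.7 and 32.7 TPM in clone 15 and 28.6, 30.3 and 10.8 TPM in clone 22. The last value belongs to the library that stands apart. Hbegf stood at 77.5, 78.3 and 76.3 TPM in clone 17 and 74.2, 74.1 and 76.6 TPM in clone 42, against 54.5, 67.7 and 58.6 TPM in clone 15 and 66.9, 70.6 and 46.4 TPM in clone 22. Nrg4 stood at 0.847, 0.365 and 0.809 TPM in clone 17 and 0.807, 0.747 and 0.502 TPM in clone 42, against 1.47, 1.46 and 2.16 TPM in clone 15 and 2.28, 2.12 and 1.94 TPM in clone 22. All 6 libraries labelled knockout are under 1 TPM and all 6 labelled wild type above it, so Nrg4 passed the filter through clones 15 and 22 alone, and it is not counted as support. Groups did not overlap for 3 of the 9 members tested, 2 higher and 1 lower, and for 5.04% of the 11795 genes tested (3.53% higher, 1.52% lower). Without Nrg4 these were 2 of 8 members. The acinar marker list moved with these groups: its 3 genes summed to 9.21 to 13.6 TPM in the clones labelled knockout and to 16.5 to 29.3 TPM in those labelled wild type. Nearly all of it was Cela1, with Cpa1 at 0 and Prss2 at no more than 0.735 TPM in every library, and its part in the results was not tested.

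With the clone as the unit of replication, 2 means against 2, none of these differences was called. The log2 difference was 0.69 for Tgfa (SE 0.25, limma adjusted p = 0.716), 0.33 for Hbegf (SE 0.20, adjusted p = 0.999) and -0.79 for Nrg4 (SE 0.36, adjusted p = 0.894). Without the library that stands apart it was 0.46 for Tgfa, 0.24 for Hbegf and -0.81 for Nrg4. Genes of chromosome 6, where Tgfa lies, had a median log2 difference of 0.21 in this comparison. After centring each library per chromosome the difference was 0.42 for Tgfa, 0.20 for Hbegf and -0.78 for Nrg4. With all libraries and the values as deposited, 0.0763% of all genes were called in this test. Among the 9 members tested 0 were called, with 1, Tgfa, at an unadjusted p under 0.05 (0.0205), as were 662 of all genes.

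A second count took a difference in all 4 pairings of a knockout-labelled with a wild-type-labelled clone, with the spread between libraries as error. It held 1 member of 9, Nrg4, lower (largest adjusted p of the 4 pairs 0.0361), against 1.01% of all genes (0.517% lower), and 0 of the other 8. The log2 differences of Nrg4 were -0.69 and -0.91 for clone 17 against clones 15 and 22, and -0.67 and -0.89 for clone 42. Their mean, -0.79, became -1.39 with a pseudocount of 0.1. This call was lost without any 1 of the 9 libraries of clones 17, 42 and 15 (largest adjusted p between 0.0558 and 0.154), with a pseudocount of 0.1 (0.0587), with quantile normalization (0.188), with centring per chromosome (0.143), without clone 17 (0.0644) or clone 42 (0.0813), and with the replicate number as a block (0.0611). The size of the difference moved little with quantile normalization (-0.75), centring per chromosome (-0.78), and without clone 17 (-0.78) or clone 42 (-0.80). Without the library that stands apart, Tgfa was called too: its log2 differences were 0.41 and 0.44 for clone 17 against clones 15 and 22 and 0.48 and 0.51 for clone 42 (largest adjusted p 0.00592). Hbegf was then called against clone 15 (log2 differences 0.36 and 0.32, adjusted p = 0.00519 and 0.00971) and not against clone 22 (0.17 and 0.12, adjusted p = 0.199 and 0.331). Without that library the background was higher too. Over all 4 pairs 3.88% of genes were called, against 1.01% with it. The share was 32.8% between clones 17 and 15, against 10.7% with it, 20.4% between clones 17 and 22, against 6.49%, 35.2% between clones 42 and 15, against 12.3%, and 27.1% between clones 42 and 22, against 10.3%.

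The clones labelled knockout differed from each other in Areg. It stood at 67.6, 73.6 and 67.8 TPM in clone 17 and 30.6, 29.7 and 27.5 TPM in clone 42, against 37.2, 38.8 and 27.5 TPM in clone 15 and 43.8, 44.4 and 44.0 TPM in clone 22. Clone 17 lies above every other clone and clone 42 overlaps clone 15. Clone 17 was higher than clone 15 (log2 difference 1.01, SE 0.13, adjusted p = 8.25e-04) and clone 22 (0.65, SE 0.13, adjusted p = 0.0154), and clone 42 was lower than clone 22 (-0.58, SE 0.13, adjusted p = 0.0187) and not called against clone 15 (-0.22, adjusted p = 0.358). Between clones 17 and 42 the log2 difference was 1.23 (SE 0.13, adjusted p = 1.28e-04), in a comparison where 17.2% of genes were called. In order from high to low the clones stood as 17, 22, 15 and 42, as they did for Mcu. Neighbours 22 and 15 (log2 difference 0.36, adjusted p = 0.233) and 15 and 42 did not pass the test. The share of all genes with this order was not counted, and a link of Areg to Mcu was not tested.

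Ereg, next to Areg on chromosome 5, had the same order of clone means in TPM, though not on the log2 scale of the tests. It was 14.6, 14.4 and 12.1 TPM in clone 17 and 7.58, 7.05 and 8.35 TPM in clone 42, against 8.01, 7.84 and 8.03 TPM in clone 15 and 11.4, 10.3 and 3.27 TPM in clone 22. On the log2 scale clone 22 stood below clone 15 (difference -0.090), and clone 42 stood above clone 22 (0.038). No pair of neighbours was called in either order. Without the library that stands apart the mean of clone 22 was 10.8 TPM instead of 8.31 ± 4.40 TPM (SD, n = 3). Clone 17 was then higher than clone 15 (log2 difference 0.71, adjusted p = 5.29e-04), and clone 42 was lower than clone 22 (-0.45, adjusted p = 0.0148).

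Btc stood at 14.8, 15.3 and 15.4 TPM in clone 17 and 21.3, 19.6 and 25.7 TPM in clone 42, against 14.2, 11.4 and 10.5 TPM in clone 15 and 15.6, 15.8 and 5.48 TPM in clone 22. Clone 42 lies above all other libraries of the line, and no pair passed the test (adjusted p = 0.115 and 0.0853 against clones 15 and 22). Without the library that stands apart, clone 42 was higher than clone 15 (log2 difference 0.83, adjusted p = 4.72e-04) and clone 22 (0.46, adjusted p = 0.0276). Epgn was at most 0.501 TPM in the clones labelled knockout and 0.666 TPM in those labelled wild type.

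**Figure D3:**
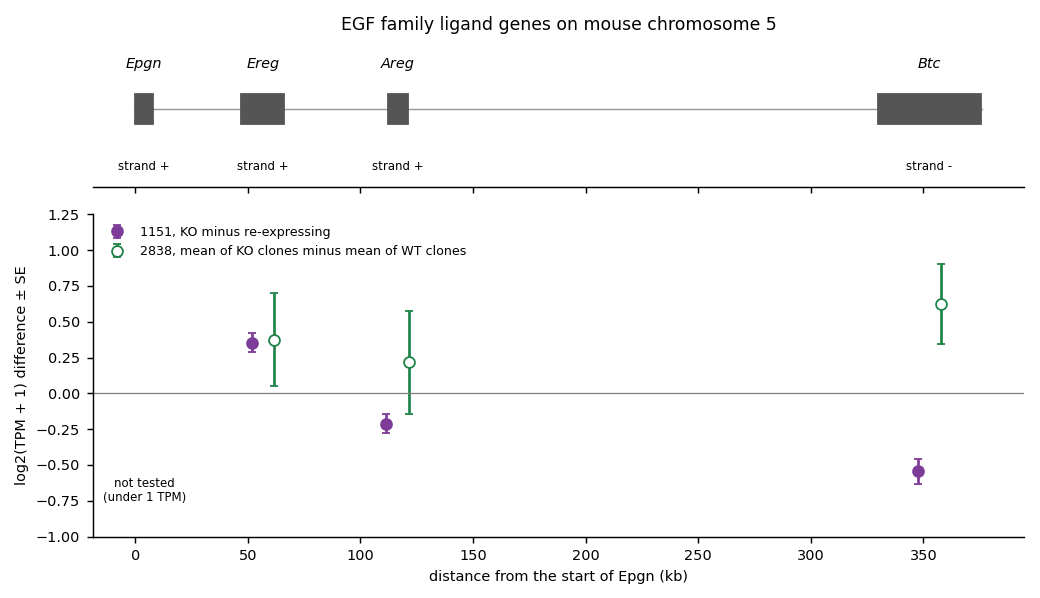
Positions of Epgn, Ereg, Areg and Btc on chromosome 5 (upper panel, kb from the start of Epgn) and the log2(TPM + 1) difference with SE (lower panel) of 1151 cells labelled knockout against re-expressing cells and of the 2838 clone means; filled points have a limma adjusted p under 0.05. In 1151, Ereg lies above zero and Areg and Btc below it.

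These 4 ligand genes are neighbours, with no other protein-coding gene lying wholly within the stretch. In GENCODE M21 (mm10), Epgn spans chr5:91027464-91035215, Ereg chr5:91074622-91093646 and Areg chr5:91139599-91148432 on the plus strand, and Btc chr5:91357261-91402994 on the minus strand. The start of Areg lies 112.1 kb, and that of Btc 375.5 kb, from the start of Epgn. Despite their place side by side, Ereg and Areg moved apart in 1151, where genes of chromosome 5 had a median log2 difference of 0.14. Over the 18 libraries, with each line centred on its own mean, Pearson's r of log2(TPM + 1) was 0.51 between Areg and Ereg, -0.12 between Areg and Btc and 0.38 between Ereg and Btc. These points share clones and libraries, and the values are descriptions. The highest such values among the members were 0.87 between Egfr and Hbegf and 0.85 between Erbb2 and Btc, and the lowest was -0.80 between Hbegf and Nrg4.

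Among the receptors of 2838, Egfr was 2.92, 4.80 and 3.65 TPM in clone 17 and 0.606, 2.32 and 1.23 TPM in clone 42, against 0.611, 0.459 and 0.820 TPM in clone 15 and 1.60, 1.78 and 0.254 TPM in clone 22. Clone 17 lies above the rest, and clone 42 overlaps both clones labelled wild type. Clone 17 was higher than clone 15 (log2 difference 1.54, SE 0.33, adjusted p = 0.0136) and was not called against clone 22 (1.18, adjusted p = 0.0616) or clone 42 (1.05, adjusted p = 0.052). Clone 42 was not called against clone 22 (0.13, adjusted p = 0.825), a difference that changed sign without the library that stands apart (-0.24, adjusted p = 0.586). Erbb2 was 18.8, 20.8 and 19.7 TPM in clone 17 and 29.5, 30.3 and 28.7 TPM in clone 42, against 17.9, 21.5 and 22.7 TPM in clone 15 and 21.4, 21.4 and 11.04 TPM in clone 22. Here clone 42 is the high one, and it was not called against clone 15 (0.50, adjusted p = 0.18) or clone 22 (0.74, adjusted p = 0.0522) until the library that stands apart was left out (0.50 and 0.44, adjusted p = 0.00196 and 0.00913).

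Erbb3 was 7.96, 8.36 and 6.76 TPM in clone 17 and 5.28, 5.00 and 4.66 TPM in clone 42, against 5.52, 5.71 and 6.33 TPM in clone 15 and 5.08, 5.38 and 2.23 TPM in clone 22. Clone 17 lies above the others, with no pair called in the 12 libraries. Without the library that stands apart clone 17 was higher than clones 15 and 22 (log2 differences 0.34 and 0.48, adjusted p = 0.0378 and 0.0217). The ratio of Egfr to Erbb2 was 0.191 ± 0.038 in clone 17 and 0.0466 ± 0.028 in clone 42, against 0.0305 ± 0.0080 in clone 15 and 0.0602 ± 0.032 in clone 22 (SD, n = 3 each). Without the library that stands apart the ratio in clone 22 was 0.0788 (n = 2).

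Pair by pair, 3 of the 9 members were called between clones 17 and 15 (Egfr and Areg higher, Nrg4 lower; 10.7% of all genes), 2 between clones 17 and 22 (Areg higher, Nrg4 lower; 6.49%), 1 between clones 42 and 15 (Nrg4 lower; 12.3%) and 2 between clones 42 and 22 (Areg and Nrg4 lower; 10.3%). Nrg4 passed the filter through clones 15 and 22 alone, so its calls are not counted as support here either. These comparisons share clones. Between the clones labelled wild type, 22 and 15, 0 members were called (limma; 1 at an unadjusted p under 0.05), against 1.92% of all genes.

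**Figure D4:**
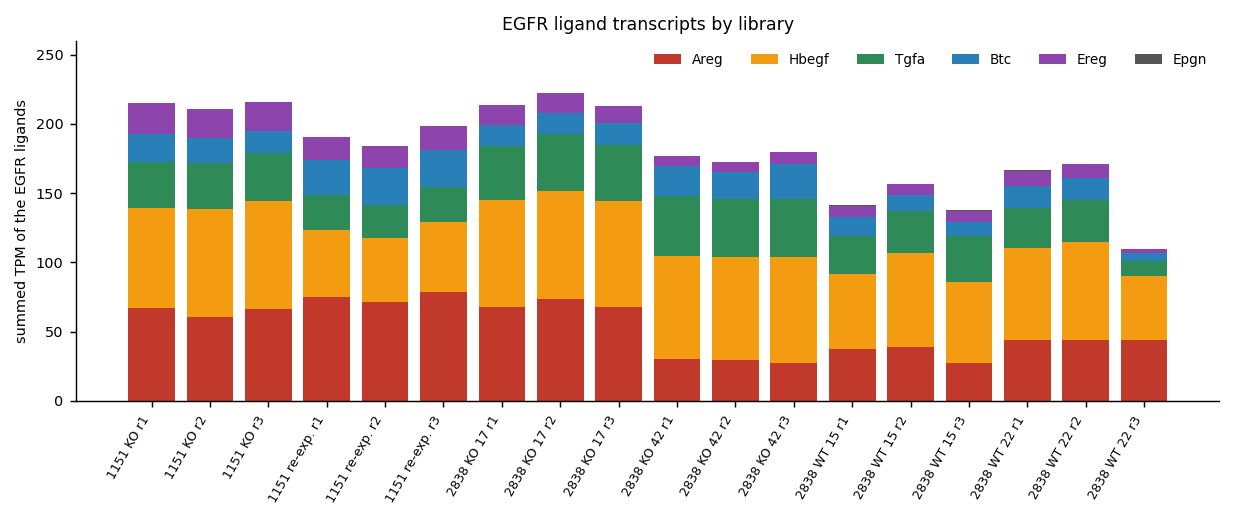
Summed TPM (vertical axis) of the 6 ligands that bind EGFR, stacked by gene, in the 18 libraries (horizontal axis). The sum ranges from 110.0 TPM in clone 22 replicate 3 to 222.6 TPM in clone 17 replicate 2, and Areg and Hbegf are the largest contributions in most libraries.

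Summed over the 6 ligands of EGFR, RNA stood at 213.9 ± 2.97 TPM in 1151 cells labelled knockout and 191 ± 7.26 TPM in re-expressing cells. In 2838 the sum was 216.5 ± 5.28 TPM in clone 17 and 176 ± 3.70 TPM in clone 42, against 145 ± 10.0 TPM in clone 15 and 149 ± 34.1 TPM in clone 22 (SD, n = 3 each). The mix differed as well. In 1151, Areg made up 30.2% ± 1.33 of the sum in the cells labelled knockout, against 39.2% ± 0.483 in the re-expressing cells, while Hbegf made up 35.7% ± 1.93 in knockout-labelled cells, against 25.2% ± 0.154 in re-expressing cells. In 2838, Areg made up 32.2% ± 0.790 in clone 17 and 16.6% ± 1.12 in clone 42, against 23.7% ± 3.26 in clone 15 and 30.7% ± 8.04 in clone 22. Without the library that stands apart, clone 22 had a sum of 169 TPM, of which Areg made up 26.1% and Hbegf 40.7% (n = 2). Thus Hbegf was the most abundant ligand in the 1151 cells labelled knockout and in all 2838 clones, and Areg in the re-expressing cells.

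Hbegf lay within the top 16.6% to 26.6% of genes at 1 TPM or more in every library, while Erbb3 ranked no higher than the top 76.7%. In the 1151 cells labelled knockout, Egfr ranked between the top 68% and 69%. Epgn did not reach 1 TPM in any library. Mean Hbegf in the groups labelled knockout was 76.3 ± 3.61 TPM in 1151, 77.3 ± 0.990 TPM in clone 17 and 74.95 ± 1.40 TPM in clone 42, and mean Nrg4 was 0.675 ± 0.377 TPM in 1151, 0.674 ± 0.268 TPM in clone 17 and 0.685 ± 0.162 TPM in clone 42 (SD, n = 3 each). Between clones 17 and 42 neither passed the test (log2 differences 0.045, SE 0.15, adjusted p = 0.891 for Hbegf and -0.019, SE 0.18, adjusted p = 0.967 for Nrg4). A test not passed does not show equal levels, and these Nrg4 means are under 1 TPM. Line and batch are the same split, so the 1151 means are not compared with those of 2838. In the same groups mean Areg was 64.6 TPM in 1151, 69.7 TPM in clone 17 and 29.2 TPM in clone 42.

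Whether the lines changed alike was asked of the difference between their effects. On the 6 group means, 0 of 9 members were called (limma; 0 at an unadjusted p under 0.05, against 1738 genes), with 1.10% of all genes called. The difference of the log2 differences, 1151 minus 2838, was 1.96 for Egfr (SE 0.73, adjusted p = 0.368), -1.07 for Erbb2 (SE 0.46, adjusted p = 0.429), -1.34 for Erbb3 (SE 0.53, adjusted p = 0.391) and -1.17 for Btc (SE 0.43, adjusted p = 0.368). For Hbegf it was 0.31 (SE 0.21), for Tgfa -0.26 (SE 0.39) and for Nrg4 -0.42 (SE 0.26). With libraries in place of group means, which leaves out the spread between clones, 5 members passed, against 33.6% of all genes. The log2 difference by label, not the level, was higher in 1151 than in 2838 for Egfr. It was lower for Erbb2, Erbb3, Areg and Btc.

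**Figure D5:**
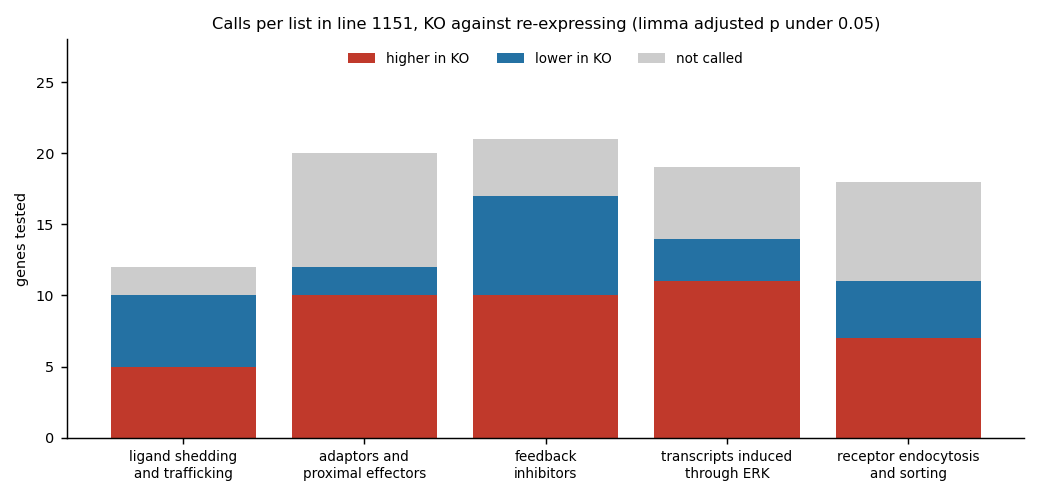
Number of genes (vertical axis) called higher, called lower or not called in the 1151 cells labelled knockout against re-expressing cells, for 5 lists of genes that act with the ERBB receptors (horizontal axis). Calls in both directions occur in every list, with 11 higher and 3 lower among the 19 tested transcripts induced through ERK.

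Genes around the receptors in 1151 were read from lists chosen with earlier results of these data known. Of 20 transcripts known to be induced through ERK, the kinase downstream of EGFR, 19 were tested, 11 higher and 3 lower (median log2 difference 0.57, against 0.055 over all genes). These counts, and those of the other lists, stand against the 61.0% of all genes called in this comparison. Ptgs2, encoding an inducible cyclooxygenase, averaged 34.8 ± 0.792 TPM in the cells labelled knockout, against 9.84 ± 1.66 TPM in the re-expressing cells (SD, n = 3 each; log2 difference 1.73, adjusted p = 2.49e-05). The AP-1 subunit Fosl1 averaged 133 ± 12.8 TPM in knockout-labelled cells, against 48.2 ± 5.10 TPM in re-expressing cells (1.44, adjusted p = 3.38e-05), and the ephrin receptor Epha4 44.5 ± 2.30 TPM in knockout-labelled cells, against 16.7 ± 0.662 TPM in re-expressing cells (1.36). Those lower were Plaur, the urokinase receptor (-0.44), Ier2 (-0.36) and Hmga2 (-0.27). Centred per chromosome, the differences of Fosl1 (0.85) and Hmga2 (-0.66) moved but held their calls. That of Ier2 was lost when libraries were centred per chromosome (-0.052, adjusted p = 0.547).

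Of 22 feedback inhibitors of the pathway, 21 were tested, 10 higher and 7 lower (median 0.41). The ERK phosphatase Dusp5 averaged 109 ± 4.63 TPM in the cells labelled knockout, against 39.3 ± 0.957 TPM in the re-expressing cells (log2 difference 1.45, adjusted p = 2.84e-06), and Lrig1, a membrane protein that promotes the loss of ERBB receptors, 29.1 ± 1.18 TPM in knockout-labelled cells, against 16.3 ± 0.456 TPM in re-expressing cells (0.80). Sh3kbp1, a CBL partner in EGFR endocytosis, was higher (0.78). Spry1 (-1.29), Socs2 (-0.80) and Spry4 (-0.68) were lower. Centred per chromosome, the difference was 0.85 for Dusp5 and 0.47 for Lrig1, both still called.

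Of 13 genes of ligand shedding, 12 were tested, 5 higher and 5 lower (median 0.071). Timp3, which inhibits ADAM17 and so opposes shedding, averaged 15.8 ± 0.602 TPM in the cells labelled knockout, against 1.33 ± 0.173 TPM in the re-expressing cells (log2 difference 2.86, adjusted p = 1.37e-06). The metalloprotease Adam8 averaged 6.62 ± 3.67 TPM in knockout-labelled cells, against 0.691 ± 0.075 TPM in re-expressing cells (2.07). Adam8 passed the filter through the knockout-labelled libraries alone, so its place among the 5 higher genes is not counted as support. Its knockout-labelled libraries also spread widely. Rhbdl2, a rhomboid protease, was lower at 15.1 ± 0.878 TPM in knockout-labelled cells, against 38.2 ± 2.96 TPM in re-expressing cells (-1.28, adjusted p = 1.98e-05), as were Adam15 (-0.62) and Adam10 (-0.51). Frmd8, a binding partner of the iRhom proteins, was higher as deposited (0.29) and lower after centring per chromosome (-0.30, adjusted p = 0.00469).

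Of 20 adaptors and proximal effectors, 20 were tested, 10 higher and 2 lower (median 0.25). Eps8, an EGFR substrate, averaged 104 ± 10.5 TPM in the cells labelled knockout, against 36.2 ± 4.27 TPM in the re-expressing cells (log2 difference 1.495, adjusted p = 3.73e-05). Pik3cb (1.06) and Gab2 (1.01) were also higher. The lower genes were the adaptor Shc1, at 73.7 ± 6.12 TPM in knockout-labelled cells, against 134 ± 4.02 TPM in re-expressing cells (-0.85, adjusted p = 6.66e-05), and the kinase Map2k1 (-0.19), whose call was lost after centring per chromosome (adjusted p = 0.0662). Of 18 genes of receptor endocytosis, 7 were higher and 4 lower (median 0.15), with Ehd1 (1.09), Cltc (0.66) and Rab5a (0.42) higher and Snx1 (-0.51), Ap2m1 (-0.43) and Epn1 (-0.41) lower. The call of Rab5a was lost after centring per chromosome (0.17, adjusted p = 0.068), and that of Ehd1 held at 0.50. Of the other 5 family members, 2 were tested, and Nrg1, a neuregulin that binds ERBB3, averaged 20.1 ± 3.73 TPM in knockout-labelled cells, against 13.1 ± 0.884 TPM in re-expressing cells (log2 difference 0.57, adjusted p = 0.00988; centred per chromosome 0.87, adjusted p = 0.00135).

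In 2838, 2 of the 91 genes of these lists that were tested were called by the comparison of all clone pairs, both higher, against 1.01% of all genes. Dusp5 averaged 33.0 TPM in clone 17 and 34.2 TPM in clone 42, against 22.2 TPM in clone 15 and 22.9 TPM in clone 22 (mean log2 difference 0.55, largest adjusted p 0.0266). Phlda1, a transcript induced through ERK, averaged 200 TPM in clone 17 and 196.9 TPM in clone 42, against 114 TPM in clone 15 and 133 TPM in clone 22 (0.68, largest adjusted p 0.00158). Under median-of-ratios scaling the largest adjusted p was 0.154 for Dusp5 and 0.10 for Phlda1, and centred per chromosome 0.517 and 0.312, so neither call held. With quantile normalization it was 0.131 for Dusp5, whose call was lost, and 0.00113 for Phlda1. On clone means neither was called (adjusted p = 0.815 for Dusp5 and 0.569 for Phlda1). Hmga2, an ERK-induced transcript named after its values were seen, was called lower under all 3 of these scalings (mean log2 differences -0.80, -0.82 and -0.89) and not as deposited, and Fos was called higher with quantile normalization (1.28, largest adjusted p 0.0421). In 1151 Phlda1 averaged 80.0 TPM in the cells labelled knockout, against 87.8 TPM in the re-expressing cells.

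For the 6 members averaging at least 5 TPM, the genes whose levels followed them most closely over the 18 libraries, each line centred on its own mean, were found among 9417 genes of at least 5 TPM. The libraries share clones and groups, so these values are descriptions. For Areg they were the asparagine synthetase Asns (Pearson's r 0.96) and Leprotl1 (0.94). For Hbegf they were the small Maf factor Mafk (0.96) and Pa2g4 (0.96), and for Tgfa Tbc1d2b (0.98) and the mannose-6-phosphate receptor M6pr (0.97). Erbb2 was most like the chloride channel Clcn2 (0.96) and Acer3 (0.96), Ereg like Fam83h (0.95) and Ern1 (0.95), and Btc like Rnf141 (0.97) and Zadh2 (0.96).

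Of the markers of other cell types, 2 of the 3 of endothelium differed between the 1151 groups, in opposite directions. Kdr stood at 8.24 to 8.67 TPM in the cells labelled knockout, against 0.72 to 0.859 TPM in the re-expressing cells. Cdh5 reached at most 0.017 TPM in the cells labelled knockout, against 4.63 to 5.305 TPM in the re-expressing cells. The 3 genes together summed to between 8.32 and 8.77 TPM in the cells labelled knockout, against 5.602 to 6.10 TPM in the re-expressing cells, and to at most 0.677 TPM in any 2838 library. Pecam1 reached at most 0.529 TPM in any library. The 8 epithelial markers summed to 6885 to 6952 TPM in clone 17 and 5613 to 6101 TPM in clone 42, against 4460 to 4886 TPM in clone 15 and 5453 to 6051 TPM in clone 22. Their part in the results above was not tested.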

How the data were processed

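PolyA RNA gave 18 libraries in 6 groups of 3, grouped by the labels. The authors deposited 1 table of TPM values (35642 symbols). Salmon, DESeq2 and the build mm10 are named in the submitters' processing notes; tool versions and annotation were not given in the sources used here. Library sums were 998353 to 998961 TPM. Since depth was unknown, no counting interval is given; a rise of abundant genes lowers the TPM of all others.

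Tests used limma 3.58.1 (R 4.3.3) on log2(TPM + 1) (trend in the variance prior, Benjamini-Hochberg adjustment over all genes tested, call at an adjusted p under 0.05). A gene was tested where 3 or more libraries of the fit held 1 TPM. Line 1151 was compared library by library, 2838 by clone means and by all 4 clone pairs, and the lines by their 6 group means. The main fits had no replicate block. Some items are not reported here. Each fit was run on simulated data, and the outcome is not used as support here. The genes changed there averaged 5 TPM or more and were raised further, with a clone spread set in advance. Low genes such as Egfr and Nrg4 were therefore not covered. The members and lists were chosen with earlier results of these data known. Named genes were the 10 members, Mcu, up to 3 called genes per list and direction averaging 5 TPM or more in the higher group, and the 2 genes of most like pattern per member averaging 5 TPM or more. Phlda1 in 1151, and Hmga2 and Fos in 2838, were added after their values were seen. Positions came from GENCODE M21 (mm10), promoters from RefSeq (GRCm38.p6). Alternatives were another pseudocount, other filters and scalings, no variance trend, replicate number as a block, a different unit (library, clone or group), and each library or clone left out. Centring per chromosome, and clones left out of the all-pairs comparison, were added after seeing the data.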

Additional observations from a re-analysis of the deposited data

Results flagged for a closer look

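Of 17 checks of a member over the 6 libraries of one 2838 arm, 2 had a library whose gap to its nearest neighbour was a large part of the range; chance alone gives this in about 1 group in 20. Both were clone 22 replicate 3, labelled wild type, in which Erbb3 stood at 2.23 TPM and Tgfa at 10.8 TPM. The other 5 libraries labelled wild type ranged from 5.08 to 6.33 TPM for Erbb3 and from 27 to 32.7 TPM for Tgfa. In that library the members stood at between 0.15 (Egfr) and 0.998 (Areg) of their mean in the other libraries of the clone, and the median gene at 0.653. The part of this library's distribution in these values was not tested.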

How the results depend on the processing

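In 1151 the count of members called was 9 and became 5 with all 18 libraries in the fit and 0 on the 6 group means (3 at an unadjusted p under 0.05, limma), and between 7 and 9 with 1 library left out, where Egfr dropped from the test whenever a knockout-labelled library was left out. The count over all genes, 7098, became 4637 and 268 in the same fits and between 5925 and 6993 with 1 library left out. No member changed direction in 1151.

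On 2838 clone means the count of members was 0 and became 1 (Nrg4) with 12 libraries as the unit, and stayed 0 with any 1 library left out. Over all genes the count of 9 became 0 with no filter (978 at an unadjusted p under 0.05, limma), 3 with median-of-ratios scaling, 4 with quantile normalization, 4 with no trend, 2 centred per chromosome, 431 with 12 libraries, 398 without clone 17, 267 without clone 42, and 0 without clone 15 or 22 (333 and 373 unadjusted). It lay between 0 and 24 with 1 library left out, the 0 being without clone 22 replicate 3 (748 unadjusted).

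By all clone pairs, the count of 1 member became 0 with a pseudocount of 0.1, a mean of at least 5 TPM (Nrg4 not tested), quantile normalization, centring per chromosome, the replicate block, and without clone 17 or 42, and 3 without clone 22 (Hbegf and Tgfa higher). It lay between 0 and 2 with 1 library left out. The 119 genes became 193 with median-of-ratios scaling, 215 with quantile normalization, 436, 244, 191 and 1303 without clones 17, 42, 15 and 22, and between 65 and 457 with 1 library left out. The split of 58 higher and 61 lower became 52 and 116 when centred per chromosome.

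For the difference between lines, 0 members became 5 with 18 libraries, with or without the replicate block, and stayed 0 with 1 library left out. The 137 genes became 1220 with no filter, 0 with no trend (1723 unadjusted, limma), 243 centred per chromosome, 4190 with 18 libraries and 4171 with the block, 0 without clone 17, 42, 15 or 22 (1789, 1891, 1149 and 1295 unadjusted), and between 4 and 158 with 1 library left out. Causes were not tested.

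Members' values that changed sign were not called in either setting; among other named genes, Frmd8 in 1151 was called in both (0.29 as deposited, -0.30 centred per chromosome). Without clone 17, the 2838 log2 difference was -0.40 for Areg and -0.007 for Ereg, and the difference between lines 0.18 and 0.36. That of Ereg, -0.022, was 0.0065 with quantile normalization, 0.023 without clone 22, and between -0.16 and 0.22 with 1 library left out, above zero without 1151 knockout replicate 2 (0.009), re-expressing replicate 3 (0.001), clone 42 replicate 3 (0.0058) or clone 22 replicate 3.

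Same-numbered libraries did not pair: their deviations correlated between -0.146 and -0.029 in 1151 and between -0.153 and 0.196 in 2838. With the replicate block, 1151 gave 9 members and 6672 genes, and 2838 pairs 0 members and 100 genes. With depth unknown, no counting error could be given for the low values of Nrg4, Epgn and, outside the 1151 cells labelled knockout, Egfr.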
